A study of Mus musculus with 12 samples.

Results

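The genes described here are 10 mouse genes of the NRF2 and glutathione redox system, picked out by gene symbol, from a list drawn up with earlier results of these data known, out of 56748 genes in a table of RNA sequencing counts. They are Nfe2l2, which encodes NRF2, with Nqo1, Hmox1, Gclc, Gclm, Gsr, Txn1, Txnrd1, Srxn1 and G6pdx. Each symbol matched 1 row of the table, and all 10 genes were among the 16465 that passed a filter on low counts and were tested. The counts came from wild-type C3H10T1/2 cells (10T1/2), an established line of mouse mesenchymal progenitors, in 12 libraries of poly(A) RNA with 4 replicates in each of 3 groups. All cells were serum-starved (0.5% serum), held in suspension for 1 h and then plated for 18 h on gels of 12 kPa stiffness that carried a coat of type I collagen (0.05 mg/ml). The collagen was used alone (col1), was polymerized with 30 nM recombinant mouse ACLP, a secreted matrix protein that was made in a human cell line and carries a myc-His tag (col1-ACLP), or was polymerized with the same ACLP while the cells received SB431542, an inhibitor of the TGFβ receptor kinase ALK5 (col1-ACLP+SB). The inhibitor was measured only in the presence of ACLP, since no col1 library received it, and the comparisons of col1-ACLP and col1-ACLP+SB with col1 share the 4 col1 libraries.

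Total counts ran from 29246154 to 52201922 per library. The 9 mesenchymal markers listed were all expressed, with a summed level from 34100 to 35400 CPM (counts scaled to library size) on col1. The same sum was 44100 to 53000 CPM with ACLP and 40700 to 46200 CPM with ACLP and SB431542. Col1a1 (mean 11900 CPM on col1 and 21000 CPM with ACLP) and Col1a2 (7310 and 11500 CPM) carried that difference, while the means of Pdgfra (420 and 248 CPM), Pdgfrb (483 and 437 CPM), Prrx1 (508 and 455 CPM) and Vim (5210 and 4900 CPM) were lower with ACLP. Markers of other cell types were at or near 0, with Epcam, Adgre1, Cd3e, Myod1 and Myog at 0 in every library, except Tek (3.95 to 9.57 CPM), Cd68 (5.32 to 10.0 CPM) and Cdh1 (1.88 to 3.84 CPM). Replicate 2 of col1 stood apart on the first principal component (19.5% of the variance), at -86.7 against -11.1 to -8.97 for the other col1 libraries, and values without it are given where they bear on a result. In bulk RNA a lower level in every cell and a smaller share of expressing cells cannot be told apart. The labels give replicate numbers only, so the p-values measure the spread between these libraries.

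NRF2 is a transcription factor that is held at a low level by KEAP1, an adaptor that delivers it to a CUL3 ubiquitin ligase. When oxidants or electrophiles modify KEAP1, NRF2 escapes degradation, pairs with a small MAF protein and binds the antioxidant response element in the promoters and enhancers of its targets, so its activity is set largely at the level of the protein and not of the Nfe2l2 transcript. Its targets supply the cell with glutathione, the main soluble thiol, and with thioredoxin, and they supply the NADPH that keeps both reduced. BACH1 occupies the same elements as a repressor, above all at Hmox1.

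To show where the core of that element lies near these genes, promoters were searched on both strands for TGACNNNGC from 1000 bases before to 100 bases after the start of the canonical transcript (GENCODE M39 on GRCm39, the build whose positions the count table carries). A match was found in 5 of the 10 genes, against 33.4% of 16381 windows of the same length around tested genes, and 3 of the 10 had one from 250 bases before to 50 after the start, against 13.1%. None of the matches overlapped an AP-1 motif (TGANTCA). That motif was present somewhere in 23.3% of the long windows, but its overlap with a TGACNNNGC match was far rarer among them. The absence of an overlap in these few genes therefore says little. The stretches around 4 matches are shown for Gsr and Gclm, which encode enzymes of glutathione reduction and synthesis, and for the gene of NRF2 itself, each with the match in capitals and read along the strand of its gene.
Gsr, 744 bases before the start, chr8:34142502-34142550, plus strand: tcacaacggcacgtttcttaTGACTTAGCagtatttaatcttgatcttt
Gsr, 516 bases before the start, match on the opposite strand, chr8:34142730-34142778, plus strand: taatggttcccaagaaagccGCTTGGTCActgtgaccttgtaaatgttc
Gclm, 54 bases before the start, match on the opposite strand, chr3:122039052-122039100, plus strand: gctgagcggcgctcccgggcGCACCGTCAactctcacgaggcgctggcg
Nfe2l2, 262 bases before the start, chr2:75535219-75535267, minus strand: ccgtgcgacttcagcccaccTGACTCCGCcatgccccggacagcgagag
The Gsr match at -744 lies outside the transcripts of GENCODE and the one at -516 in the first intron of an alternative Gsr transcript. The Gclm stretch is in an intron of an opposite-strand long noncoding RNA, and the Nfe2l2 stretch is in exons of long noncoding RNAs on either strand. Txnrd1 had matches at -371 and -65 and Srxn1 had one at 29, within its transcript. The windows of Nqo1, Hmox1, Gclc, Txn1 and G6pdx held no match, which says only that these letters are not in these windows.

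Levels were compared between genes per length, as CPM per kilobase of the gene length in the table (FPKM), and the order depends on that length. On col1 the highest of the 10 was Hmox1 at 164 ± 8.88 FPKM (SD, n = 4, as for all levels), the enzyme that opens the heme ring, followed by the thiol carrier Txn1 at 127 ± 7.97 and by Nqo1 at 53.9 ± 3.88. Nfe2l2 (28.03 ± 0.566) and Txnrd1 (27.5 ± 0.831) differed by less than their spread. Srxn1 (25.0 ± 0.442) and G6pdx (20.8 ± 0.947) followed. The lowest were Gsr (11.9 ± 1.44), Gclc (11.0 ± 0.708) and Gclm (8.57 ± 0.456), and Gsr and Gclc also differed by less than their spread. On col1-ACLP Txn1 (153 ± 3.65) and Hmox1 (148 ± 3.20) were highest and Nqo1 stood at 95.4 ± 4.87. There Nfe2l2 (24.55 ± 1.13) and G6pdx (24.1 ± 0.566) differed by less than their spread, and Gsr (19.7 ± 1.87) was above Gclc (11.4 ± 0.581) by more than theirs. With SB431542 Hmox1 (158 ± 5.37) and Txn1 (147 ± 11.3) overlapped within their spread above Nqo1 (83.0 ± 6.90), as did Nfe2l2 (23.8 ± 1.78), Srxn1 (23.1 ± 0.985) and G6pdx (22.8 ± 1.14).

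Collagen-bound ACLP was compared with collagen alone to ask how a matrix with ACLP alters gene expression. Among the 10 redox genes, Nqo1 was 1.77-fold and Gsr 1.65-fold higher on col1-ACLP, Gclm, Txn1 and G6pdx were 1.16-fold to 1.25-fold higher, and Nfe2l2 fell by 12.4% and Hmox1 fell by 9.74%. Gclc, Txnrd1 and Srxn1 did not pass the test. Below, a gene rose or fell where its adjusted p was under 0.05 in the quasi-likelihood test of edgeR, adjusted by Benjamini-Hochberg over all genes tested. It was called where its log2 fold change was also beyond 0.58, the threshold of the study. By that rule 2 of 10 members were called higher and 0 lower, against 2.61% and 2.36% of all genes tested (4.97% in either direction). Over all genes that was 430 higher and 389 lower, and 362 and 480 with scaling by library size alone, under which the 2 members were still the ones called. By adjusted p alone 5 rose and 2 fell, against 9.52% and 8.41% of all genes (17.9% in either direction). The 4 libraries of col1-ACLP were all above those of col1 for 5 members and all below for 3, against 10.9% and 10.3% of all genes (21.2% in either direction). The median log2 fold change of the 10 was 0.13, beside -0.0099 over all genes tested.

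**Figure D1:**
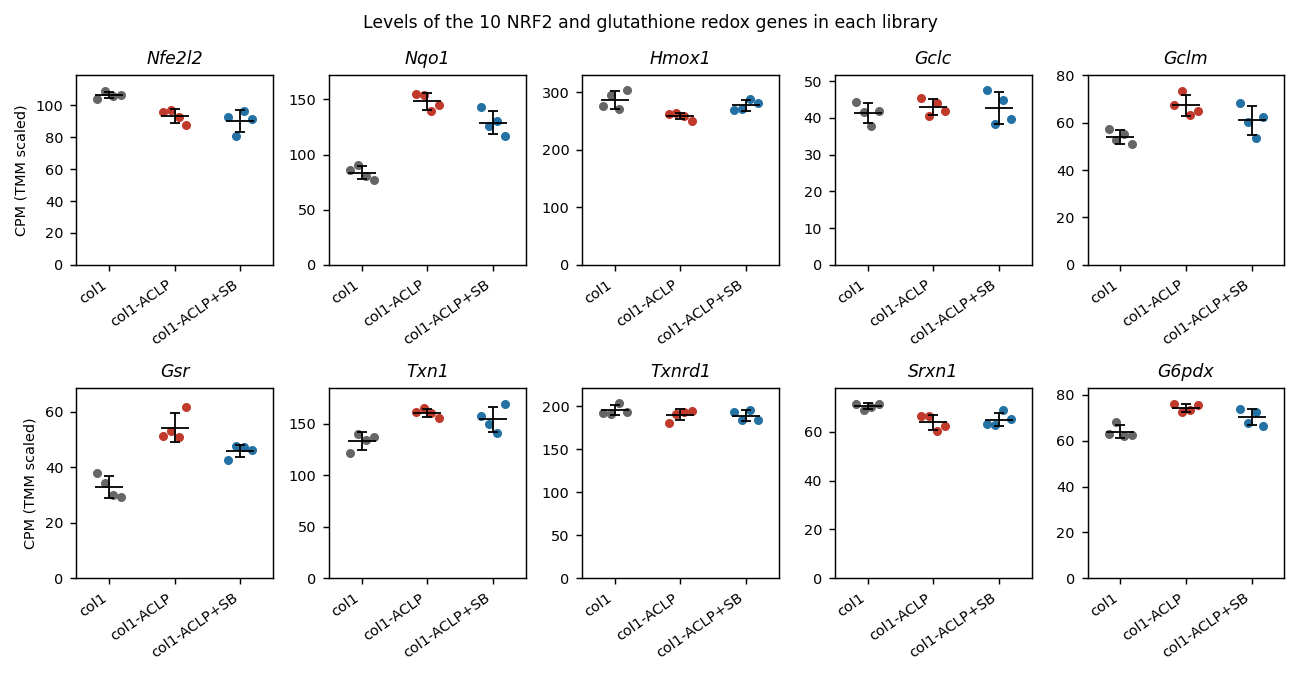
Level of each of the 10 genes in CPM (vertical axes, each from 0) in the 4 libraries of col1, col1-ACLP and col1-ACLP+SB; points are libraries, and bars give the mean and SD. Nqo1 and Gsr lie higher in every col1-ACLP and col1-ACLP+SB library than in any col1 library, while the 3 groups of Gclc and of Txnrd1 overlap.

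Nfe2l2 itself (ENSMUSG00000015839, chr2:75505857-75534985, minus strand) was at 104, 109, 106 and 107 CPM on col1 and at 95.9, 96.9, 92.6 and 87.3 CPM on col1-ACLP. All 4 col1-ACLP libraries were lower than all 4 col1 libraries, by a small margin. The gene fell by 0.19 on the log2 scale (SE 0.0576, 95% interval -0.31 to -0.072, adjusted p = 0.0207 in edgeR). The adjusted p was 0.0535 without col1 replicate 2, 0.0563 without col1-ACLP replicate 3 and 0.0856 without col1-ACLP replicate 4, and it was under 0.05 in 18 of 21 alternative settings. Nfe2l2 shares 278 exonic bases with E030042O20Rik, a noncoding RNA on the opposite strand, which had 8 to 41 counts per library beside 2402 to 4994 for Nfe2l2.

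Nqo1, the quinone reductase that is a widely used readout of NRF2 activity, had the largest change of the 10 (ENSMUSG00000003849, chr8:108114857-108129838, minus strand). Its levels were 86.0, 90.7, 80.9 and 76.9 CPM on col1 and 155, 154, 139 and 145 CPM on col1-ACLP. The groups were far apart, with the lowest col1-ACLP library well above the highest col1 library. The log2 fold change was 0.83 (SE 0.0632, 95% interval 0.695 to 0.956, adjusted p = 2.41e-10 in edgeR), and it ranged from 0.775 to 0.868 over the alternative settings. Hmox1, which degrades heme to iron, biliverdin and carbon monoxide (ENSMUSG00000005413, chr8:75820249-75827217), moved the other way by a small amount, from 277, 295, 270 and 304 CPM on col1 to 262, 263, 258 and 251 CPM on col1-ACLP. The groups did not overlap, and the gene fell by 0.15 on the log2 scale (95% interval -0.244 to -0.051, adjusted p = 0.0283 in edgeR). That adjusted p was above 0.05 in 6 of 21 alternatives: 0.0821 without col1 replicate 2, 0.124 without col1 replicate 4, 0.0533, 0.0673 and 0.0812 without col1-ACLP replicates 1, 3 and 4, and 0.0699 with no filter on low counts.

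Of the subunits of glutamate-cysteine ligase, the enzyme of the first and limiting step of glutathione synthesis, only the modifier passed the test. Gclm (ENSMUSG00000028124, chr3:122039206-122064381), which makes the ligase more efficient, was at 57.4, 52.5, 55.0 and 50.8 CPM on col1 and at 67.3, 73.2, 63.3 and 65.0 CPM on col1-ACLP, with no overlap. It rose by a log2 fold change of 0.32 (SE 0.0717, 95% interval 0.171 to 0.467, adjusted p = 0.00199 in edgeR). Gclc (ENSMUSG00000032350, chr9:77661817-77701767), the catalytic subunit, was at 44.3, 41.6, 37.9 and 41.9 CPM on col1 and at 45.4, 40.6, 44.1 and 41.8 CPM on col1-ACLP. These libraries overlapped, and the interval of the Gclc difference ran from -0.106 to 0.211 on the log2 scale (adjusted p = 0.730 in edgeR). The difference between the responses of the subunits was not tested. Gclm shares 869 exonic bases with the opposite-strand Gm17494, which had 13 to 51 counts beside 1795 to 2770 for Gclm, and 492 bases with the pseudogene Gm6061, which had 0 counts in every library. How the authors assigned reads that fit both is not given in the sources used here.

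Gsr encodes glutathione reductase, which returns oxidized glutathione to its reduced form at the expense of NADPH (ENSMUSG00000031584, chr8:34142551-34188191). It was at 37.9, 34.2, 30.0 and 29.4 CPM on col1 and at 51.4, 53.2, 50.8 and 61.9 CPM on col1-ACLP. No library of col1-ACLP reached down to the col1 libraries, and col1-ACLP replicate 4 was the highest. The log2 fold change was 0.72 (SE 0.0832, 95% interval 0.553 to 0.896, adjusted p = 3.04e-07 in edgeR), with values from 0.658 to 0.801 over the alternatives. Without col1 replicate 2 the values of Nqo1 and Gsr were 0.868 and 0.745, with adjusted p = 5.46e-10 and 1.11e-06 in edgeR, and both calls held. G6pdx (ENSMUSG00000031400, chrX:73453089-73472800, minus strand), the first enzyme of the pentose phosphate pathway and a main source of cytosolic NADPH, was at 63.0, 68.3, 62.1 and 62.5 CPM on col1 and at 76.2, 72.5, 73.3 and 75.4 CPM on col1-ACLP. Those groups did not overlap, and the gene rose by a log2 fold change of 0.22 (SE 0.0580, 95% interval 0.097 to 0.337, adjusted p = 0.00875 in edgeR). G6pdx shares 526 exonic bases with Ikbkg, a gene on the opposite strand with 5488 to 10346 counts per library beside 2010 to 3765 for G6pdx, and whether the counting used the strand is not given in the sources used here, so of the 10 it is the one most exposed to reads from an overlapping gene. Its retrogene copy G6pd2 had at most 1 count in a library.

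In the thioredoxin arm, the carrier rose, and its reductase and the sulfiredoxin did not pass the test. Txn1 (ENSMUSG00000028367, chr4:57943373-57956411, minus strand), a small protein that passes electrons to peroxiredoxins and other disulfides, was at 121, 140, 135 and 137 CPM on col1 and at 161, 165, 160 and 156 CPM on col1-ACLP. The groups did not overlap, and the log2 fold change was 0.27 (SE 0.0573, 95% interval 0.151 to 0.387, adjusted p = 0.00119 in edgeR). Txnrd1 (ENSMUSG00000020250, chr10:82669785-82733546), the selenoprotein that reduces thioredoxin, was at 192, 191, 204 and 193 CPM on col1 and at 181, 191, 193 and 195 CPM on col1-ACLP. The Txnrd1 libraries overlapped, with an interval from -0.134 to 0.059 on the log2 scale (adjusted p = 0.679 in edgeR). Srxn1 (ENSMUSG00000032802, chr2:151947436-151953296), which restores overoxidized peroxiredoxins, was at 71.6, 68.8, 70.3 and 71.3 CPM on col1 and at 66.7, 66.4, 60.3 and 62.6 CPM on col1-ACLP. Its 4 col1-ACLP libraries all lay below the col1 libraries, but the difference of -0.14 (95% interval -0.259 to -0.019) had an adjusted p of 0.107 in edgeR. It passed in 1 of 21 alternatives, with scaling by library size alone (-0.189, adjusted p = 0.0233 in edgeR).

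With SB431542 present, cells on ACLP were compared with col1 to ask which differences from collagen alone remain while ALK5 is inhibited. Nqo1 was 1.54-fold and Gsr 1.40-fold higher than on col1, Txn1 was 1.16-fold higher and Nfe2l2 fell by 15.1%, and the other 6 members did not pass the test. Of the 10, 1 was called higher and 0 lower, against 1.27% and 1.01% of all genes tested (2.28% in either direction). By adjusted p alone 3 rose and 1 fell, against 4.60% and 4.54% (9.13% in either direction). The libraries did not overlap for 3 members that were higher and 1 that was lower, against 6.70% and 6.32% of all genes (13.0% in either direction). The median of the 10 was 0.089, beside 0.0046 over all genes tested.

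Nqo1 was at 143, 126, 130 and 117 CPM on col1-ACLP+SB, where every library stayed above the highest one on col1 at 90.7 CPM. The log2 fold change over col1 was 0.63 (SE 0.0631, 95% interval 0.495 to 0.755, adjusted p = 7.73e-08 in edgeR). The call rests on col1-ACLP+SB replicate 1, the highest of its group: without it the log2 fold change was 0.573 with an adjusted p of 6.89e-07 in edgeR, just under the threshold of 0.58. Without col1 replicate 2 it was 0.667. Gsr was at 42.7, 47.5, 47.2 and 46.4 CPM on col1-ACLP+SB. All 4 libraries were above col1, and the gene rose by a log2 fold change of 0.48 (SE 0.0831, 95% interval 0.312 to 0.655, adjusted p = 0.000194 in edgeR), without reaching the threshold on fold change.

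Nfe2l2 was at 92.6, 80.6, 96.3 and 91.5 CPM on col1-ACLP+SB, all below col1, and fell by 0.24 on the log2 scale (SE 0.0575, 95% interval -0.355 to -0.117, adjusted p = 0.00755 in edgeR). That fall passed in all 21 alternatives. Txn1 was at 157, 150, 141 and 169 CPM, all above col1, and rose by a log2 fold change of 0.21 (SE 0.0572, 95% interval 0.092 to 0.328, adjusted p = 0.0180 in edgeR). The adjusted p of Txn1 was 0.0911 without col1 replicate 1, 0.0556 without col1-ACLP+SB replicate 1 and 0.0966 without col1-ACLP+SB replicate 4.

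The remaining 6 members are described by their levels and log2 differences. Gclm was at 68.1, 60.2, 53.4 and 62.2 CPM on col1-ACLP+SB, which overlapped col1 through replicate 3, and its log2 difference was 0.18 (95% interval 0.029 to 0.324, adjusted p = 0.145 in edgeR). Without that replicate it was 0.237, with an adjusted p of 0.0383 in edgeR. G6pdx was at 73.6, 67.9, 72.6 and 66.5 CPM and overlapped col1, with a log2 difference of 0.13 (95% interval 0.015 to 0.254, adjusted p = 0.179 in edgeR). The means of Hmox1 (277 ± 9.40 CPM), Gclc (42.6 ± 4.32 CPM), Txnrd1 (189 ± 6.43 CPM) and Srxn1 (65.1 ± 2.78 CPM) gave log2 differences from col1 of -0.046, 0.043, -0.045 and -0.12, with adjusted p from 0.270 to 0.841 in edgeR.

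The effect of the inhibitor itself was measured by comparing col1-ACLP+SB with col1-ACLP. None of the 10 members passed edgeR's test: 0 were called, against 0.0850% of all genes tested called higher and 0.0425% lower (0.128% in either direction), and 0 passed by adjusted p alone, against 0.571% higher and 0.905% lower (1.48% in either direction). The estimates were lower with SB431542 for 8 members and higher for 2, with a median of -0.052 on the log2 scale beside 0.0049 over all genes tested. This comparison shares the col1-ACLP libraries with the one of col1-ACLP with col1, so members high in those libraries tend to low estimates here. The estimates were -0.20 for Nqo1 (SE 0.0625, 95% interval -0.329 to -0.072) and -0.24 for Gsr (SE 0.0823, 95% interval -0.411 to -0.071). These differences had unadjusted p = 0.00371 and 0.00730 and adjusted p = 0.116 and 0.162 in edgeR's quasi-likelihood test. For Gsr the 4 col1-ACLP+SB libraries were all lower than those on col1-ACLP and for Hmox1 they were all higher (log2 difference 0.10, 95% interval 0.0050 to 0.198, adjusted p = 0.351 in edgeR), against 4.52% and 3.65% of all genes (8.17% in either direction). The Nqo1 libraries overlapped between the groups, through col1-ACLP+SB replicate 1. At an unadjusted p under 0.05 there were 3 members (Nqo1, Gsr and Hmox1), against 12.8% of all genes tested. DESeq2 and limma-voom also called 0, though DESeq2 and the fit without a filter gave Nqo1 adjusted p-values of 0.0425 and 0.0402. The interval of each of the other 7 differences ran across 0 and reached no further than -0.29 (Gclm) and 0.149 (Gclc). Of all genes tested, 14 were called higher and 7 lower with SB431542, and 18 and 5 with scaling by library size alone.

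**Figure D2:**
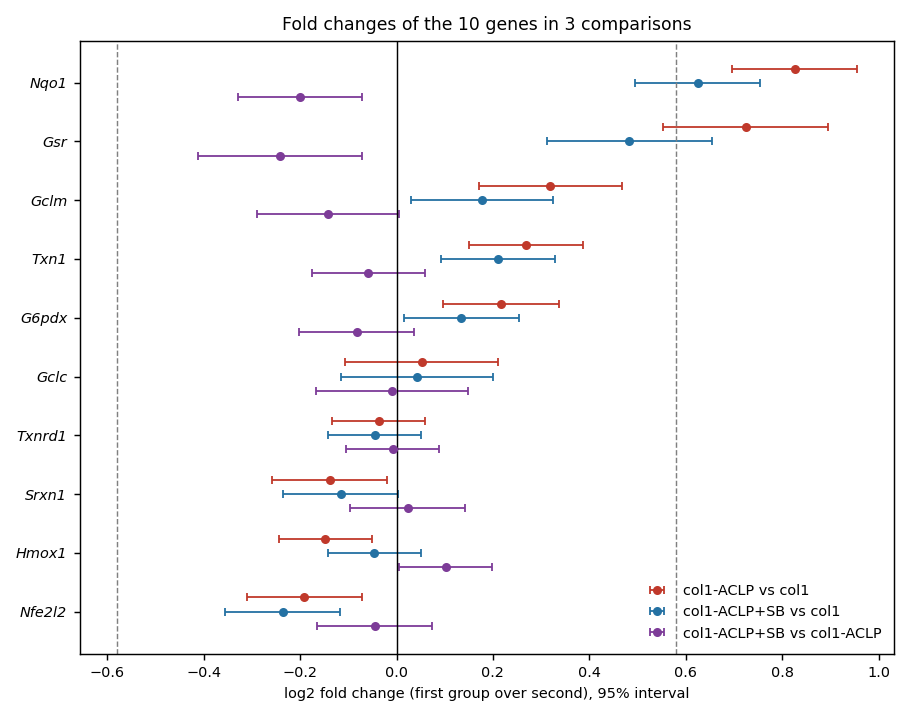
Log2 fold change (horizontal axis) of each of the 10 genes in the comparisons of col1-ACLP with col1, of col1-ACLP+SB with col1 and of col1-ACLP+SB with col1-ACLP; points are edgeR estimates, bars are 95% intervals, and dashed lines mark 0.58 in either direction. Nqo1 and Gsr lie farthest to the right in both comparisons with col1, and in the direct comparison every estimate is between -0.24 and 0.10.

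The genes whose profile over the 12 libraries was most like that of Nqo1 were sought among 9158 tested genes with a mean of at least 10 CPM, by the root mean square difference of centred log2 CPM. They were Pgam1 (0.0770), a glycolytic mutase, Mars1 (0.0824), the cytosolic methionyl-tRNA synthetase, and Fbln5 (0.0847), a protein of elastic fibres. Pgam1 was at 169 ± 8.27 CPM on col1, at 280 ± 7.84 CPM with ACLP and at 261 ± 8.68 CPM when SB431542 was added. Mars1 was at 94.1 ± 7.61, 157 ± 4.58 and 132 ± 7.55 CPM in the same order, and Fbln5 was at 638 ± 7.10, 1100 ± 26.7 and 971 ± 28.7 CPM. None of the other 9 members was among these 3. With only 3 of 9158 genes kept, that absence says little, and how close the members came to Nqo1 was not measured.

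The wider pathway was described with a list of 117 other genes in 8 roles, of which 111 were tested. Between col1-ACLP and col1, 7 were called higher and 7 lower, and by adjusted p alone 19 rose and 23 fell, with a median log2 fold change of 0.012. Over all genes tested 2.61% and 2.36% were called higher and lower, and 9.52% and 8.41% passed by adjusted p. Among 12 tested regulators of NRF2, 0 were called by edgeR, with 4 at an unadjusted p under 0.05 against 28.3% of all genes, and by adjusted p alone 1 rose and 1 fell. Keap1 was at 55.8 ± 2.44 CPM on col1 and 56.6 ± 4.10 on col1-ACLP (log2 difference 0.021, adjusted p = 0.90 in edgeR, with the sign reversed to -0.0297 under library size alone). Bach1 fell by 0.22 on the log2 scale (68.3 ± 3.40 to 58.8 ± 5.44 CPM, adjusted p = 0.0287 in edgeR), with libraries that overlapped. The 1 that rose, named after its values were seen, was Nfe2l1, an NRF2-related factor (596 ± 13.5 to 675 ± 26.5 CPM, log2 fold change 0.18, adjusted p = 0.00196, every library higher).

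Of 13 genes for glutathione synthesis, uptake of its precursor cystine and turnover, 3 were called higher and 1 lower, against 2.61% and 2.36% of all genes. By adjusted p alone 5 rose and 1 fell, against 9.52% and 8.41%. Cth, which makes cysteine from cystathionine, went from 1.26 ± 0.439 to 6.90 ± 2.15 CPM (log2 fold change 2.46, SE 0.271, adjusted p = 1.48e-07 in edgeR). Chac1, which degrades glutathione, went from 18.5 ± 3.73 to 52.5 ± 7.81 CPM (1.5, SE 0.126, adjusted p = 1.40e-09). Slc7a11, the cystine importer and an NRF2 target, went from 21.7 ± 1.58 to 33.8 ± 2.62 CPM (0.64, SE 0.0861, adjusted p = 3.71e-06). All 3 are also known targets of ATF4, the transcription factor of the amino acid response. Whether ATF4 took part in these changes was not tested. Ggt5, a cell surface hydrolase of glutathione conjugates, was lower at a low level (2.47 ± 0.170 to 1.24 ± 0.399 CPM, adjusted p = 0.0357), a call lost with no filter on low counts (adjusted p = 0.120) and without any 1 of 6 libraries (col1 replicates 1, 3 and 4 and col1-ACLP replicates 1, 3 and 4, adjusted p from 0.0678 to 0.115). Gss, which completes glutathione, was at 23.0 ± 2.80 and 23.9 ± 2.15 CPM (adjusted p = 0.813).

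Among genes that use glutathione, 23 peroxidases, transferases and glutaredoxins were tested. Of these, 0 were called higher and 3 lower, against 2.61% and 2.36% of all genes. By adjusted p alone 0 rose and 7 fell, against 9.52% and 8.41%, with a median of -0.15. Gstm1, a mu class glutathione transferase, went from 463 ± 23.1 to 271 ± 14.4 CPM (fell by 0.77 on the log2 scale, SE 0.0484, adjusted p = 7.06e-12 in edgeR). Glrx, the cytosolic glutaredoxin, went from 50.3 ± 4.90 to 29.7 ± 1.33 CPM and Gsta4, a transferase for lipid aldehydes, from 53.1 ± 4.09 to 33.9 ± 4.38 CPM (adjusted p = 5.56e-08 and 1.63e-05). The call of Gsta4 was lost without col1-ACLP replicate 4, at -0.555. Gpx4, which reduces lipid peroxides, fell by 0.15 (adjusted p = 0.0406), and Gpx1 was at 9.87 ± 1.43 and 8.38 ± 1.01 CPM (adjusted p = 0.316). Transferases of 1 class have similar sequences, and the handling of reads that map to several genes is not given in the sources used here.

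Beside the counts of the next 2 roles, 2.61% of all genes were called higher and 2.36% lower, with 9.52% and 8.41% by adjusted p alone. Of 17 tested thioredoxins, peroxiredoxins and related genes, 0 were called higher and 1 lower, with 2 and 5 by adjusted p alone. The 1 was Sesn1, a sestrin, which went from 124 ± 12.6 to 78.7 ± 6.19 CPM (fell by 0.65, SE 0.0692, adjusted p = 7.70e-08 in edgeR), while Prdx1, an abundant peroxiredoxin, was at 336 ± 15.4 and 338 ± 26.3 CPM (adjusted p = 0.950). In the 16 genes of NADPH supply, 2 were called higher and 0 lower, 8 rose and 1 fell by adjusted p alone, and the median was 0.28. Both calls were mitochondrial folate enzymes: Mthfd2 went from 23.5 ± 0.855 to 63.2 ± 8.95 CPM (1.43, SE 0.0848, adjusted p = 2.55e-12) and Aldh1l2 from 80.7 ± 5.55 to 177 ± 14.4 CPM (1.13, SE 0.0604, adjusted p = 3.58e-13). Both are also known ATF4 targets, and a part of ATF4 in their change was not tested. Pgd, the next NADPH-yielding enzyme after G6pdx in the pentose phosphate pathway, was at 231 ± 6.93 and 239 ± 12.2 CPM (adjusted p = 0.531).

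The last roles have the same shares of all genes beside them, 2.61% called higher and 2.36% lower, and 9.52% and 8.41% by adjusted p alone. Among 9 genes of heme and iron handling, 2 were called higher and 0 lower, and by adjusted p alone 2 rose and 2 fell. The 2 that rose were the iron exporter Slc40a1 (0.762 ± 0.277 to 4.51 ± 0.447 CPM, log2 fold change 2.56, adjusted p = 4.22e-08 in edgeR) and the transferrin receptor Tfrc (26.6 ± 4.71 to 42.6 ± 4.47 CPM, 0.68, adjusted p = 1.42e-05). The 2 that fell, named after their values were seen, were the ferritin chains Fth1 (3522 ± 107 to 2405 ± 140 CPM, fell by 0.55, SE 0.0439, adjusted p = 5.29e-10, and called, at -0.60, with scaling by library size alone) and Ftl1 (604 ± 34.6 to 519.5 ± 18.9 CPM, fell by 0.22, adjusted p = 0.00122), both lower in every col1-ACLP library. Ferritin genes have many pseudogene copies, which could share reads with them. Of 14 other detoxification enzymes, 0 were called higher and 2 lower, and by adjusted p alone 1 rose and 4 fell. These were Aldh3a1, an aldehyde dehydrogenase, which went from 34.5 ± 2.20 to 15.3 ± 0.971 CPM (fell by 1.17, SE 0.0948, adjusted p = 6.97e-10), and the aldehyde oxidase Aox1 (25.5 ± 2.18 to 16.3 ± 0.951 CPM, adjusted p = 1.70e-05). No gene of superoxide and peroxide handling was called among 7 tested, though Sod1 (fell by 0.29, adjusted p = 0.000333) and Cat (fell by 0.16, adjusted p = 0.0371) passed by adjusted p alone, and Sod2 (adjusted p = 0.366) and the oxidase Nox4 (11.4 ± 3.64 and 11.2 ± 1.27 CPM, adjusted p = 0.938) did not.

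**Figure D3:**
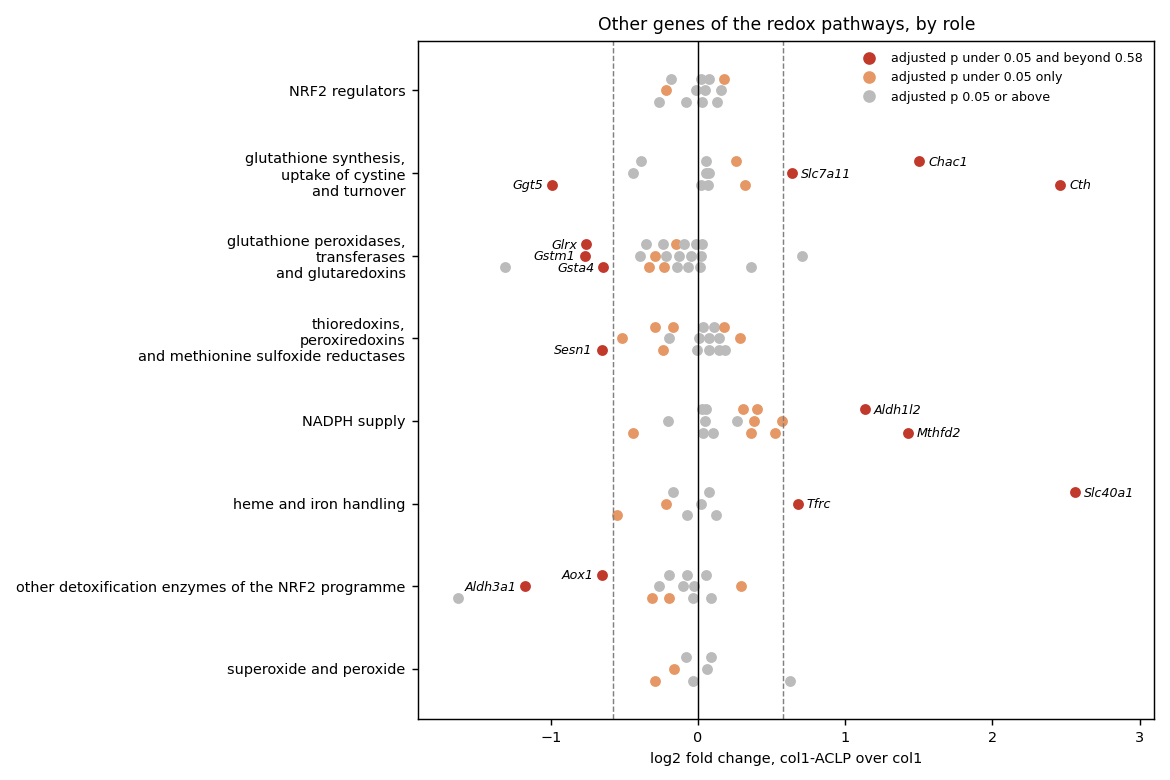
Log2 fold change between col1-ACLP and col1 (horizontal axis) of the 111 other redox genes tested, in rows by role; each point is a gene, red for adjusted p under 0.05 and a change beyond 0.58 (dashed lines), orange for adjusted p under 0.05 only and grey otherwise. The 7 red points on the right lie in the rows of glutathione synthesis and turnover, NADPH supply and iron, and the 7 on the left in the rows of glutathione turnover, glutathione-using enzymes, thioredoxins and detoxification.

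With SB431542, 6 genes of the list were called higher and 1 lower than on col1 among 111 tested, against 1.27% and 1.01% of all genes. By adjusted p alone 13 rose and 14 fell, against 4.60% and 4.54%, with a median of -0.010. This comparison shares the col1 libraries with the one before. Slc40a1 was at 4.38 ± 0.252 CPM (log2 fold change over col1 2.52), Cth at 4.34 ± 0.836 CPM (1.80), Chac1 at 45.7 ± 7.07 CPM (1.30) and Tfrc at 43.0 ± 2.17 CPM (0.69). Mthfd2 was at 45.9 ± 2.84 CPM (0.97), Aldh1l2 at 142 ± 5.12 CPM (0.81) and Aldh3a1 at 19.2 ± 2.17 CPM (-0.85), and the adjusted p of the 7 ran from 4.00e-10 to 3.22e-05 in edgeR. Directly between col1-ACLP+SB and col1-ACLP 0 were called by edgeR, DESeq2 or limma-voom, 26 had an unadjusted p under 0.05 against 12.8% of all genes, and 3 passed by adjusted p alone, against 1.48% of all genes. These 3, named after their values were seen, were Mthfd2 (fell by 0.46, adjusted p = 0.00350), Aldh1l2 (fell by 0.32, adjusted p = 0.00428) and Gstm1, which rose from 271 ± 14.4 to 321 ± 10.1 CPM (0.24, adjusted p = 0.00829).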

How the data were processed

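The 12 libraries of 10T1/2 cells, 4 per group, were grouped by the titles of the samples. Poly(A) RNA was read from both ends and mapped with HISAT2 by the authors, who deposited a table of raw counts for each gene, with no scaling or filter applied. The submitters' processing notes name mm10 and the methods of the study name GRCm39. The positions in the table are those of GRCm39, since 16367 of 16465 tested genes overlapped the same gene on the same strand in GENCODE M39. The counting tool and its use of strand are not given in the sources used here. RNA-seq of primary stromal cells was not analysed here.

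The test was edgeR 4.0.16 under R 4.3.3 (filterByExpr, TMM factors from 0.966 to 1.02, glmQLFit and glmQLFTest on all 12 libraries in 1 fit, without covariates beyond the group, and Benjamini-Hochberg adjustment). Total counts ran from 29246154 to 52201922, and the common dispersion had a square root of 0.153. Reads carry no molecular identifiers, so precision from counts covers counting error only. Replicates differed beyond sampling noise (chi-square per degree of freedom 7.22 to 19.5) and were counted as separate samples. SE values are the log2 fold change divided by the square root of the quasi-likelihood F, and CPM carry TMM scaling.

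The members and lists were chosen with earlier results of these data known. All members were named. From the wider list, up to 3 called genes with the largest changes per role were named, with 12 genes named whatever their values (Keap1, Bach1, Slc7a11, Gss, Prdx1, Gpx1, Gpx4, Sod1, Sod2, Cat, Pgd and Nox4). Of the list, Nfe2l3, Gpx7, Gsta2, Nox1, Cybb and Cyba did not pass the filter. The procedure was tested on simulated counts. It missed the bar set at first over all changed genes, and most of the changed genes it missed were under 10 CPM. It met a bar over genes of at least 10 CPM that was set after that outcome was seen, which is weak support. Changes in genes of low counts can be missed. Alternatives were other scaling (by library size alone or RLE), other filters (protein-coding genes, a mean of 10 counts, none), the groups in the fit, a replicate block, DESeq2 1.42.0, limma-voom (limma 3.58.1), the threshold (adjusted p alone, glmTreat) and each library left out. The same-numbered libraries deviated together by a correlation of -0.0372 to 0.036.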

Additional observations from a re-analysis of the deposited data

Results flagged for a closer look

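Among 30 tests of the members' levels in each group for a library far from the others, 2 passed Dixon's 95% critical value of 0.829, and chance alone passes about 1 in 20 groups. Txnrd1 in col1 replicate 3 was the highest of its group, at 204 CPM against 191 to 193 in the other 3 libraries, with a gap of 0.85 of the range. G6pdx in col1 replicate 2, the library that stood apart on the first principal component, was at 68.3 CPM against 62.1 to 63.0 in the others, with a gap of 0.851 of the range.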

How the results depend on the processing

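The count of members called between col1-ACLP and col1 was 2, and it was 7 by adjusted p alone and 1 under glmTreat, which tests the change against 0.58. For col1-ACLP+SB against col1 it was 1, with 4 by adjusted p alone, 0 under glmTreat, and 0 to 1 over the libraries left out, the 0 being without col1-ACLP+SB replicate 1. The wider list gave 14 calls, with 42 by adjusted p alone, 7 under glmTreat and 12 to 15 over libraries left out, then 7 calls with SB431542 against col1, with 27 by adjusted p alone, and 0 directly, with 3 by adjusted p alone. All genes gave 819, 376 and 21 calls in the 3 comparisons, with 2953, 1504 and 243 by adjusted p alone and 230, 81 and 0 under glmTreat. The last, 21, was 46 with no filter, 39 with DESeq2, 10 without col1-ACLP replicate 4 and 11 without col1-ACLP+SB replicate 4.

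The labels do not say whether libraries of the same replicate number belong together, so a fit with a replicate block was run as an alternative. With the replicate block, members called were 2, 1 and 0, the wider list gave 14, 7 and 0, and all genes gave 785, 357 and 17.

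Signs reversed only for differences whose reported value was near 0. With library size alone, Keap1 was -0.0297 and Prdx1 -0.0402 between col1-ACLP and col1, and Gclc 0.0171 and Txnrd1 0.0183 between col1-ACLP+SB and col1-ACLP. Prdx1 was -0.00439 among protein-coding genes, and Nox4 was 0.00344 with the block and 0.00721 with limma-voom. Over the libraries left out, log2 differences between col1-ACLP and col1 ranged from -0.0263 to 0.0956 for Gss, from -0.00934 to 0.0698 for Keap1, from -0.0364 to 0.0597 for Prdx1 and from -0.131 to 0.212 for Nox4, the last without col1 replicate 2. Gclc ranged from -0.0122 to 0.0900 for col1-ACLP+SB against col1 and from -0.0656 to 0.0364 against col1-ACLP, where Nfe2l2 ranged from -0.0793 to 0.00429, Srxn1 from -0.00715 to 0.0435 and Txnrd1 from -0.0320 to 0.00518. The cause was not tested. Ggt5, a gene of low counts, lost its call in several settings, and whether low counts were the reason was not tested.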
